A study of Drosophila melanogaster with 6 samples.

Results

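The genes described here are 10 genes that turn neuropeptide precursors into active peptides or equip peptide-secreting cells, in the fruit fly Drosophila melanogaster: amon, Phm, Pal1, Pal2, svr, dimm, 7B2, Cadps, Fur1 and Fur2. All probe sets that the platform annotation pairs with a single gene of this list were taken. This gave 10 probe sets of 8 genes, out of 13966 probe sets and 10844 named genes in all, with a pair of probe sets each for svr and 7B2. No probe set was matched to Cadps, which primes dense core vesicles for release, or to Fur1, a furin, so neither was analysed here.

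Neuropeptides are made as longer precursors that enter the regulated secretory pathway of a neuron. A prohormone convertase cuts the precursor at pairs of basic residues, a carboxypeptidase trims those residues from the new ends, and for many peptides the last glycine is then turned into an amide, in a hydroxylation step followed by a lyase step. In flies amon encodes the convertase, 7B2 its helper protein, svr the carboxypeptidase, Phm the hydroxylating enzyme, and Pal1 and Pal2 the lyases. The transcription factor dimm is known for driving the secretory character of large peptidergic neurons, and furins such as Fur2 cut proteins of the general secretory route.

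Cells carrying the red fluorescent protein dsRed1, fused directly to a 2.1 kb promoter of the glutamic acid decarboxylase gene Gad1, were separated by fluorescence-activated sorting, and total RNA was measured on 6 one-colour arrays. The EC_pos group held the fluorescent fraction of cultured embryonic cells (4 arrays, a to d), LB_pos the fluorescent fraction of larval brain and ventral nerve cord (1 array) and LB_neg the non-fluorescent fraction of that tissue (1 array). All groups thus carried the same reporter, and its signal marks cells in which this promoter fragment was active. The labels name no strain, larval stage, culture time or number of animals. They also leave unstated if the 4 arrays of EC_pos stem from independent cultures, so the p-values cover array-to-array spread, part or all of which may be technical.

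EC_pos array a stood apart. Over the 9635 probe sets bright enough to be tested, its log2 values correlated with those of b, c and d at Pearson's r of 0.59 to 0.71, against 0.91 to 0.94 among the other 3. Its ratio of 3' to 5' control probe sets was 148 to 866 over 3 transcripts, against 8.90 to 120 on the other arrays. For actin, eIF4a and GAPDH this ratio was 29.5, 120 and 19.5 on LB_neg and 58.3, 40.1 and 8.90 on LB_pos. Statistical calls for the 10 probe sets are given with and without array a. Gad1 was dim on every array, at 22.2 to 39.0 in EC_pos, 22.0 on LB_neg and 54.8 on LB_pos, too dim to check the sort. The neuronal gene elav was at 59.8 to 665 in EC_pos, 4940 on LB_neg and 1541 on LB_pos. The medians of all non-control probe sets ranged from 181.5 to 229.4. Hybridization controls had a geometric mean of 2527 on LB_neg and 7382 on LB_pos. The part of these controls and of the 3' to 5' ratios in the larval differences below was not tested. In sorted pools a higher share of cells of a type and more RNA per cell cannot be told apart.

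**Figure D1:**
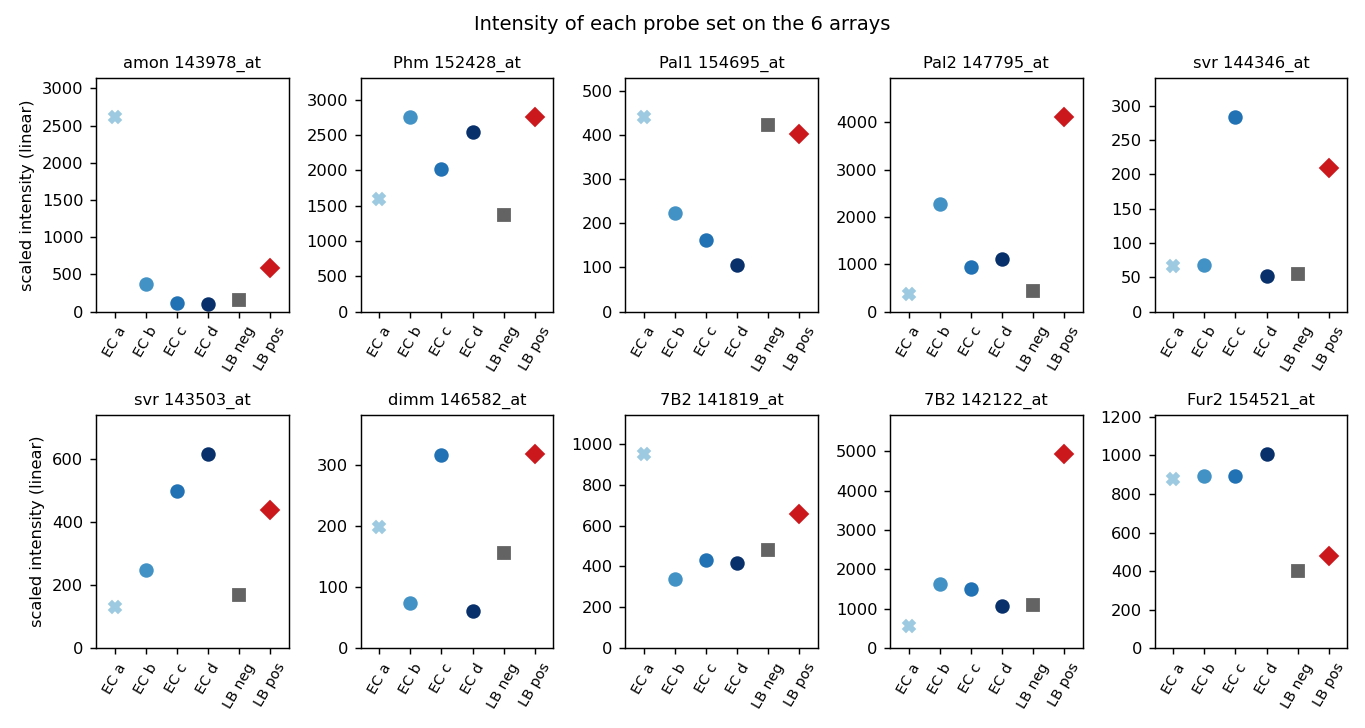
Scaled intensity (linear axis from 0, a separate range for each panel) of each of the 10 probe sets on the 4 EC_pos arrays (blue, array a as a cross), LB_neg (grey square) and LB_pos (red diamond), 1 point an array. Pal2 and 7B2 142122_at were brightest on LB_pos, amon was brightest on EC_pos a, and Fur2 was dimmer on both larval arrays than on any EC_pos array.

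The convertase step was examined first. The amon probe set (CG6438, 143978_at) read 2612, 368.5, 116 and 96.4 on EC_pos arrays a to d, 156 on LB_neg and 592 on LB_pos. Array a was 13.5 times the mean of the other 3, and both larval values lay inside the range of the EC_pos arrays. On the larval pair LB_pos was 3.79 times LB_neg, a difference of 1.62 on the scale of log2(intensity + 53.6). That exceeded the largest difference among EC_pos b, c and d (1.49) but not that between any pair of the 4 arrays (4.15). The group mean of EC_pos, 798 ± 1215 (SD, n = 4), rested on array a, since it was 194 ± 152 (n = 3) without it.

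The 7B2 gene (CG1168) had a pair of probe sets that disagreed. Probe set 142122_at read 573, 1626, 1503 and 1065 on EC_pos a to d, 1099 on LB_neg and 4927 on LB_pos. LB_pos was above every other array, 4.48 times LB_neg and 4.13 times the EC_pos mean of 1192 ± 478 (SD, n = 4). Probe set 141819_at read 950, 339, 432 and 418.5 on EC_pos a to d, 479.5 on LB_neg and 658 on LB_pos. Here array a was the brightest and LB_pos was 1.37 times LB_neg. The larval differences were 2.11 and 0.42 log2 units, and on array a the first probe set was 0.410 times, the second 2.40 times, the mean of its group's other 3 arrays.

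The carboxypeptidase gene svr (CG4122) was also read by a pair of probe sets. Probe set 143503_at read 130.5, 247, 498 and 615 on EC_pos a to d, 170 on LB_neg and 436 on LB_pos. Probe set 144346_at read 66.1, 67.7, 283 and 51.6 on EC_pos a to d, 55.3 on LB_neg and 210 on LB_pos, and passed the brightness filter on 2 arrays, EC_pos c and LB_pos. The 2 probe sets went the same way on the larval pair, with LB_pos 2.57 and 3.79 times LB_neg and differences of 1.13 and 1.27 log2 units. EC_pos arrays differed among themselves by up to 1.86 and 1.68 units, more than the larval arrays did.

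Amidation begins with Phm (CG3832, 152428_at), which read 1591, 2749, 2017 and 2538 on EC_pos a to d, 1361 on LB_neg and 2748.5 on LB_pos. LB_neg was below every other array, while LB_pos equalled the highest EC_pos array to within 0.2 intensity units. LB_pos was 2.02 times LB_neg, a difference of 0.99 log2 units, just under the 1 unit used for counting and above the largest difference between any pair of EC_pos arrays (0.77).

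Of the lyase genes that complete amidation, Pal2 was far brighter on LB_pos than on LB_neg and Pal1 was not. Pal2 (CG5472, 147795_at) read 377, 2275, 944 and 1111 on EC_pos a to d, 442 on LB_neg and 4108.5 on LB_pos. LB_pos was above all other arrays and 9.30 times LB_neg, a difference of 3.07 log2 units against at most 2.44 between any pair of EC_pos arrays and 1.22 among b, c and d. Pal1 (CG12130, 154695_at) read 440, 224, 162 and 105 on EC_pos a to d, 423 on LB_neg and 404 on LB_pos. Its larval arrays were 0.06 log2 units apart, and both were above EC_pos b, c and d and below a.

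The secretory regulator dimm (CG8667, 146582_at) read 199, 74.3, 316.5 and 61.4 on EC_pos a to d, 157 on LB_neg and 319 on LB_pos. It was dim throughout, above the filter of 197.35 on 3 arrays, and the EC_pos arrays alone spanned 5.15-fold. LB_pos was 2.03 times LB_neg (0.82 log2 units), less than the largest difference between EC_pos arrays (1.69), and it exceeded EC_pos c by 2.3 intensity units.

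Fur2 (CG18734, 154521_at), the furin with a probe set, varied least among the EC_pos arrays (1.15-fold) and was the 1 gene with both larval arrays below all of them. It read 878, 891, 892 and 1007 on EC_pos a to d, 403 on LB_neg and 479 on LB_pos. EC_pos averaged 917 ± 60.4 (SD, n = 4), 2.28 times LB_neg and 1.91 times LB_pos. The larval arrays were 0.22 log2 units apart as deposited and -0.08 under scaling to a common median, so no direction held across scalings.

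The larval fractions were compared to ask how the Gad1-reporter cells differ from the remaining cells of the same tissue. Of the 10 probe sets, all of which passed the filter, 5 were higher on LB_pos by at least 1 log2 unit, those of amon, Pal2 and svr and 142122_at of 7B2, which covers 4 of 8 genes. Over all tested probe sets 11.8% were higher by that much. None of the 10 was lower by at least 1 unit, against 7.38% of all. The median difference of the 10 was 1.06, and 9 of 10 were above 0, against 56.0% of all and a median of 0.11. The median of all tested probe sets moved to -0.02 after quantile normalization and to -0.19 with a common median, and under each of these scalings 9 of 10 were above that median, with 4 higher by at least 1 unit. Those of amon and Pal2 and 142122_at of 7B2 were among the 4 each time. The other was Phm (1.199) after quantile normalization, where both svr probe sets were under 1, and svr 144346_at (1.04) with a common median.

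These differences have no replicate of their own. The larval difference exceeded the largest difference between any pair of EC_pos arrays at 4 of 10 probe sets, those of Phm, Pal2 and Fur2 and 142122_at of 7B2, against 11.0% of all tested probe sets. Among EC_pos b, c and d alone 6 of 10 exceeded it, against 23.8% of all. When limma tested the larval pair with the spread of EC_pos, 0 of 10 were called (0.00% of all tested probe sets). Before adjustment 2 of 10 passed 0.05, Pal2 (3.07 ± 1.10 SE) and 7B2 142122_at (2.11 ± 0.84), as did 3.18% of all, and the limma adjusted p of both was 1. Without array a the contrast again called 0 of 10 (0.239% of all), and the adjusted p was 0.124 for Pal2 and 0.141 for 7B2 142122_at.

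**Figure D2:**
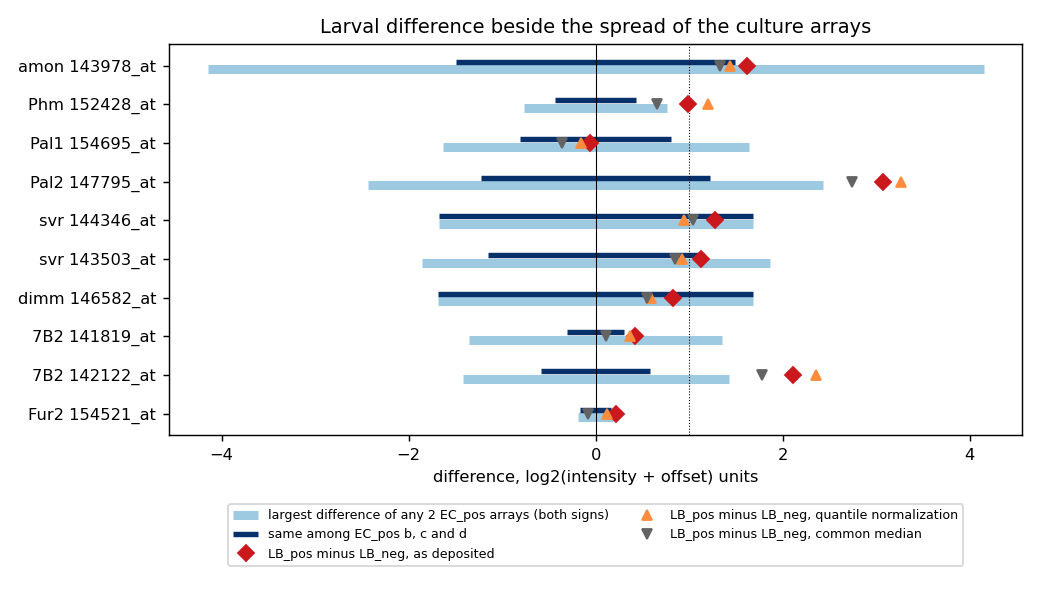
Difference LB_pos minus LB_neg (horizontal axis, log2 units, offset 53.6) for each probe set as deposited (red diamond), after quantile normalization (orange triangle) and with a common median (grey triangle). Bars span the largest difference of any 2 EC_pos arrays (light) and of b, c and d (dark) in both signs, and the dotted line is 1 unit. Pal2 (3.07) and 7B2 142122_at (2.11) lie outside both bars under all 3 scalings, and amon (1.62) lies inside the light bar.

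The fluorescent fraction of culture was then set beside that of the larval nervous system, 2 sources that differ together in age and in culture against tissue, whose effects cannot be told apart. LB_pos lay above all 4 EC_pos arrays at 3 of 10 probe sets, those of Pal2 and dimm and 142122_at of 7B2, against 34.7% of all tested probe sets. It lay below all 4 at 1 of 10, Fur2, against 18.7%. Set against b, c and d alone, it was above them at 6 of 10, now with amon, Pal1 and the other 7B2 probe set, and below at 1 of 10, against 46.5% and 27.5%. The shares above were near the background. EC_pos minus LB_pos was -2.10 ± 0.67 (SE) for 7B2 142122_at, -2.002 ± 0.87 for Pal2 and 0.86 ± 0.45 for Fur2, with limma adjusted p of 0.292, 0.388 and 0.455. The other 7 differences lay between -0.95 (dimm) and -0.33 (Phm), so Fur2 was the 1 probe set with a positive difference. With all arrays limma called 0 of 10 (0.0311% of all), and 1 of 10 had an unadjusted p under 0.05, against 13.5% of all.

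The calls of this comparison rested on array a. Without it limma called 1 of 10 as lower in EC_pos, 7B2 142122_at at -1.80 ± 0.35 (adjusted p = 0.0137 in limma), and 0 of 10 as higher, against 5.49% and 8.61% of all tested probe sets. The arrays b, c and d (1065 to 1626) were all below LB_pos (4927). Pal2 at -1.58 ± 0.49 missed the threshold (adjusted p = 0.0655), and so did amon at -1.55 ± 0.62 (0.125), Fur2 at 0.88 ± 0.35 (0.121) and Pal1 at -1.11 ± 0.46 (0.138). The value for amon was -0.65 ± 1.495 with all 4 arrays, so leaving out a moved it 2.4-fold and shrank its error. The other 7B2 probe set stood at -0.67 ± 0.38 (adjusted p = 0.251) and both svr probe sets between -0.70 and -0.03.

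EC_pos was last set beside the non-fluorescent larval fraction, a comparison that shares the EC_pos arrays with the previous one. LB_neg lay below all 4 EC_pos arrays at 2 of 10 probe sets, Phm and Fur2, against 24.7% of all, and above all 4 at 0 of 10, against 30.0%. Against b, c and d alone it was below at 4 of 10, now with Pal2 and svr 143503_at, and above at 2 of 10, Pal1 and 7B2 141819_at, against 32.8% and 41.9%. EC_pos minus LB_neg was 1.09 ± 0.45 for Fur2 (limma adjusted p = 0.283), 1.07 ± 0.87 for Pal2 (0.599), 0.66 ± 0.54 for Phm (0.600) and -0.86 ± 0.68 for Pal1 (0.586). Both 7B2 probe sets were close to 0, at 0.01 ± 0.67 and 0.04 ± 0.63, and dimm was at -0.13 ± 0.76. Limma called 0 of 10 (0.540% of all), with 1 of 10 at an unadjusted p under 0.05 (17.4% of all). Without array a it also called 0 of 10 in either direction (12.6% of all as higher and 10.6% as lower), and the smallest adjusted p-values were 0.0522 for Fur2 at 1.11 ± 0.35 and 0.0594 for Pal2 at 1.49 ± 0.49.

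**Figure D3:**
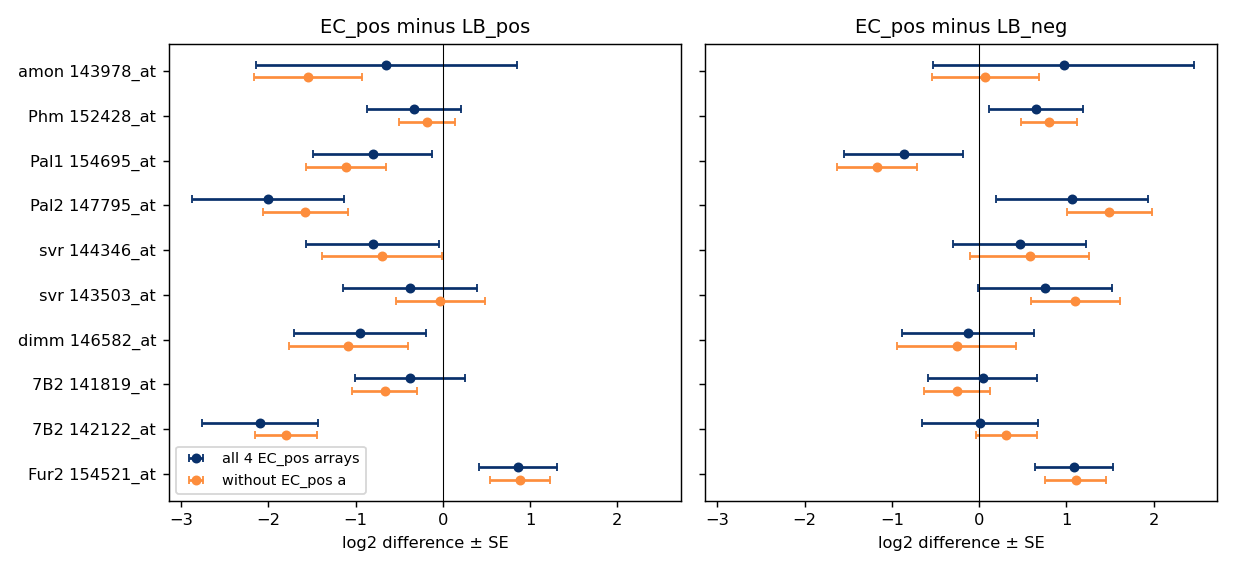
Differences EC_pos minus LB_pos (left) and EC_pos minus LB_neg (right) in log2 units with standard errors from limma, using all 4 EC_pos arrays (dark) or b, c and d (orange). Of the 10 probe sets, 7B2 142122_at without array a was called, at -1.80 on the left, and the error of amon was 1.495 with and 0.62 without array a.

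The EC_pos arrays also differed among themselves in these genes. Arrays a and b were at least 1 log2 unit apart at 4 of 10 probe sets, a and c at 7, and a and d at 6, against 39.6%, 42.6% and 46.7% of all tested probe sets. The same count was 4 for b and c, 2 for b and d and 2 for c and d, against 13.1%, 11.9% and 7.38%. On array a amon, Pal1 and 7B2 141819_at were above the mean of the other 3 (13.5, 2.69 and 2.40 times), while Pal2 and svr 143503_at were below it (0.261 and 0.288 times). The genes of the pathway thus lay on both sides of the other arrays there. By Dixon's ratio of linear intensities 1 EC_pos array lay far from the other 3 at 4 of 10 probe sets, against 13.6% of all tested probe sets. That array was a at 2 of 10, against 11.0%.

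Other genes of peptide secretion were read by the probe set of each gene with the highest mean. Of 20 tested genes of dense core vesicle biogenesis and release, 4 were higher on LB_pos by at least 1 log2 unit and 1 was lower, with a median of 0.07, close to the median of 0.09 over all 7898 tested genes. The largest differences were those of IA-2, a membrane protein of dense core vesicles, Vmat, the vesicular monoamine transporter, and nSyb, a vesicle SNARE protein of neurons. IA-2 read 44.2, 59.3, 69.0 and 117 on EC_pos a to d, 61.2 on LB_neg and 620 on LB_pos, a larval difference of 2.55. It was thus bright on LB_pos alone and was tested through that array alone, as was Rab3, so the filter itself favours a higher value there for these 2 genes. Vmat differed by 1.94 and nSyb by 1.19. Against EC_pos limma called 0 of these 20 with all arrays and 3 without a, all lower in EC_pos than on LB_pos, against 5.49% lower and 8.61% higher of all tested probe sets, namely IA-2 (-2.34, adjusted p = 0.0159), nSyb (-1.68, 0.0230) and PICK1, a scaffold protein (-2.86, 0.00421). PICK1 was bright on both larval arrays, at 2195 on LB_neg and 1925 on LB_pos.

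Enzymes that degrade peptides and the precursors themselves completed the pathway. All 5 tested degrading enzymes were above 0 on the larval pair (median 0.95), and 2 were higher by at least 1 unit. Nep1, a neprilysin, read 79.1 on LB_neg and 1054 on LB_pos (3.06), Ance, a peptidyl dipeptidase, 2625 and 7870 (1.56), and Nep4, another neprilysin, 164 and 366 (0.95). Without array a limma called Ance as lower in EC_pos than on LB_pos (-2.68, adjusted p = 0.00249), against 5.49% of all tested probe sets. It called Nep2, also a neprilysin, as higher (2.65, 0.00451), against 8.61%. Nep2 read 22.0 on array a and 569 to 716 on b, c and d. With all arrays limma called 0 of the 5. Of 29 tested precursor genes, 20 were higher on LB_pos by at least 1 unit and 1 was lower (median 1.53), led by Crz, corazonin (4.48), Capa, the capability precursor (4.25), and spab (3.88). Over all tested genes 11.0% were higher by that much and 7.63% lower. Set beside EC_pos without array a, limma called 3 precursors higher than on LB_pos (Akh, NPF and Nplp2) and 5 lower (AstCC, ITP, Nplp1, Nplp3 and Orcokinin), against 8.61% and 5.49% of all tested probe sets. It called 11 higher and 0 lower than on LB_neg, against 12.6% and 10.6%. AstCC, Ptth and sNPF passed the brightness filter through LB_pos alone, which favours a higher value there. With all arrays 0 were called against LB_pos, and the calls of precursors against LB_neg were not counted.

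**Figure D4:**
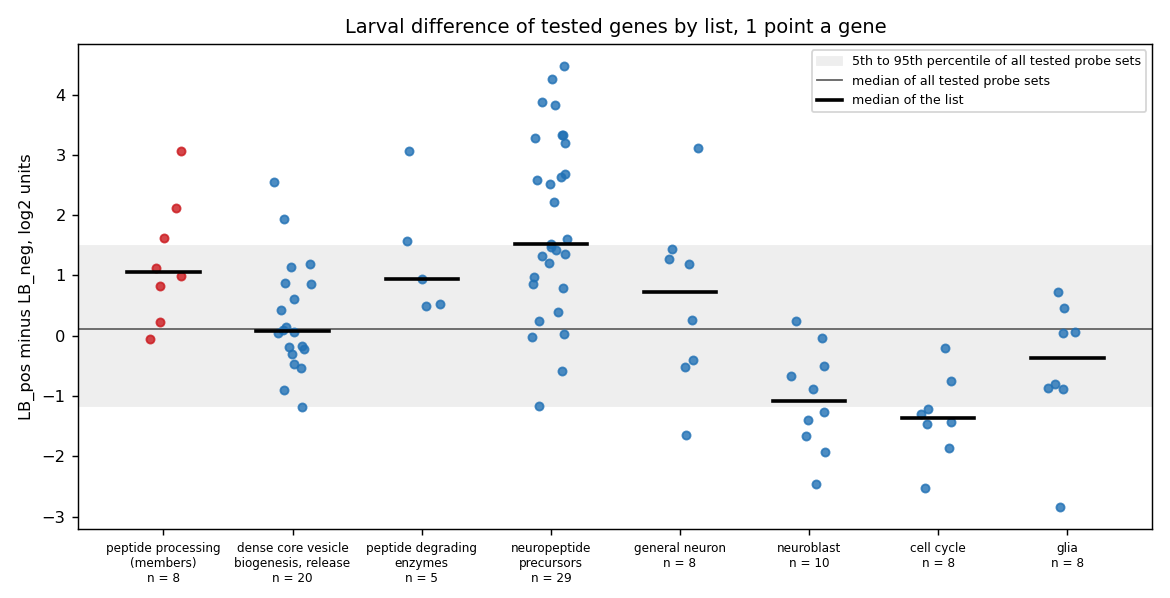
Larval difference LB_pos minus LB_neg (vertical axis, log2 units) of the tested genes of 8 lists, 1 point a gene by its brightest probe set, with list medians as black bars and the 5th to 95th percentile range of all tested probe sets in grey. The processing genes (red, median 1.06) and precursors (median 1.53) lie mostly above the median of all probe sets, dense core vesicle genes (0.07) around it, and neuroblast (-1.08) and cell cycle genes (-1.36) mostly below.

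Markers of other cells moved with the larval comparison too. Of 10 neuroblast genes 5 were lower on LB_pos by at least 1 unit (median -1.08, led by cas at -2.47, esg at -1.93 and ase at -1.66, the last tested through LB_neg alone), and their summed intensity was 16812 on LB_neg, 6736 on LB_pos and 2094 to 3021 in EC_pos. Of 8 cell cycle genes 6 were lower (median -1.36, led by Ndc80, tested through LB_neg alone, fzy and aurB), with sums of 12706, 6201 and 2334 to 3256. Of 8 general neuron genes 4 were higher and 1 lower (median 0.72, led by jeb at 3.12, elav at -1.65 and nrv3 at 1.44), with sums of 15731, 16004 and 5542 to 25219, the last on array a. Most of the sum on array a was Csp, at 22710 there and 903 to 2902 on b, c and d. The genes jeb, elav and nrv3 read 22.6, 59.8 and 1293 on array a. Glial genes summed to 6791, 3540 and 3536 to 4820, with gcm at -2.84, repo at -0.88 and wrapper, tested through EC_pos a alone, at -0.87. Of the 8 tested, 1 was lower by at least 1 unit and 4 were above 0. The LB_neg sum held 3914 from gcm alone, which read 500 on LB_pos. Of 8 hemocyte and fat body genes 3 were lower (PPO1 at -2.21, Hml at -1.49 and Pxn at -1.01), with sums of 3122, 1757 and 2929 to 6767.

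Muscle genes summed to 678.5 on LB_neg, 530 on LB_pos and 2497 to 12859 in EC_pos, and 1 of 6 was lower on LB_pos by at least 1 unit, with Mlc2 at -1.82, up at 0.90 and Mlc1 at 0.29. Of the 4 tested GABA genes 1, Gabat, was higher on LB_pos by at least 1 unit (1.51), at 576 on LB_neg and 1736 on LB_pos. Ssadh was at 0.22, VGAT at -0.004 and Gat, tested through EC_pos a alone, at -0.03. Gat was dim on both larval arrays, at 10.6 on LB_neg and 9.1 on LB_pos. The GABA genes summed to 2328, 3684 and 2072 to 2604. No marker gene of these lists lay below 53.6 on every array. The part of these cells in the levels of the peptide processing genes was not tested.

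By pattern over the 6 arrays, Tomosyn, CG10086 and RpS28b were most like Phm (Pearson's r 0.97, 0.97 and 0.96, n = 6). Without array a their r was 0.97, 0.96 and 0.95 over 5 arrays. Tomosyn read 327, 868, 693 and 1000 on EC_pos a to d, 274 on LB_neg and 1082 on LB_pos. For amon the most alike were Sbp2, Ube3a and VhaPPA1-2 (r of 0.99 each), all 3 brightest on array a. Another 69 genes were above 0.95, and without array a the r of these 3 was 0.97 to 0.99 over 5 arrays. These points share the arrays' scaling and are a description.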

How the data were processed

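Expression was measured on 6 one-colour arrays. The authors deposited 1 linear intensity per probe set and array for 14010 probe sets, already scaled, since the mean without the lowest and highest 2% was 500.063 to 500.083 on every array. The sources used here name no software, scanner or build, and no detection calls were used. Tests omitted the 44 control probe sets. Intensities were transformed as log2(intensity + 53.6), the 25th percentile of all values, which understates changes of dim genes. A probe set was tested if any of its values passed 197.35, the median of all intensities (9635 did). Genes were named from the platform annotation (12443 single-gene probe sets), with symbols updated for 12394 through RefSeq gene IDs (Release 6 assembly, used for names only).

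A model of 3 group means was fitted in limma 3.58.1 under R 4.3.3 (eBayes with trend, Benjamini-Hochberg adjustment over all tested probe sets, calls under 0.05). The spread came from EC_pos alone (3 residual degrees of freedom), on the assumption that the single larval arrays vary as much. The code was tested on simulated data. The number of arrays limits the precision.

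Members and gene lists were chosen with earlier results of these data known. Every member is named, and from the other lists the 3 genes with the largest absolute larval difference. PICK1, Nep2 and 8 precursors were named after their values were seen, because limma called them without array a. VGAT and Csp were likewise named later, VGAT to complete the tested GABA genes and Csp for its part in a sum. The count against EC_pos b, c and d alone of where larval values lie was also added after seeing the data. The lists were dense core vesicle genes, degrading enzymes, precursors, general neuron, GABA, neuroblast, cell cycle, glia, hemocyte and fat body, and muscle genes. Promoter motifs and sequences were not used here. Alternatives were other offsets, filters and scalings, eBayes without trend, and leaving out each EC_pos array.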

Additional observations from a re-analysis of the deposited data

Results flagged for a closer look

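In 4 of the 10 probe sets 1 EC_pos array lay far from the other 3 of its group, by Dixon's test at 95% on linear intensities. For normally distributed values chance gives this in about 1 of 20 groups of 4, and 13.6% of all tested probe sets met it. Linear intensities widen gaps at the bright end, and the test was not run on the log2 scale used elsewhere. The amon probe set was at 2611.6 on array a, with the next array at 368.5. The 7B2 probe set 141819_at was at 949.8 on array a, with the next at 431.8. The svr probe set 144346_at was at 283.1 on array c, with the next at 67.7. Fur2 was at 1007.1 on array d, with the next at 892.2, a small gap in a tight group. Array a was the one far off in 2 of the 4, and so at 2 of 10 against 11.0% of all tested probe sets. Of the 1306 tested probe sets that met the test, array a was the one far off at 1060.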

How the results depend on the processing

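Leaving out an EC_pos array cannot move a larval difference, and the filters and the trend move none. Of the 200 differences of single probe sets that an alternative did move, 191 kept their direction and their side of the threshold, 1 passed the threshold where it had not before, and 8 changed sign. With array a kept, limma called 0 to 12 of all tested probe sets for EC_pos minus LB_pos. It called 0 to 161 for EC_pos minus LB_neg and 0 for the larval pair. Almost no probe set could cross the threshold in those settings, so keeping its side there is no measure of stability. The count of probe sets at least 1 log2 unit higher on LB_pos was 5, and 3 with the offset at the 50th percentile, since the larger offset shrinks differences of dim genes. Leaving out EC_pos b, c or d gave 0 calls for EC_pos minus LB_pos among the 10 and 0 among all 9635 tested probe sets. Leaving out a gave 1 call, 7B2 142122_at, against 1359 of all 9635. For EC_pos minus LB_neg, where values lay near 0, leaving out 1 array at a time gave -0.25 to 0.20 for 7B2 141819_at. It gave -0.16 to 0.31 for 7B2 142122_at and -0.44 to 0.12 for dimm. With a common median the 7B2 probe sets were at -0.041 (141819_at) and -0.072 (142122_at) in that contrast, and Fur2 was at -0.078 for LB_pos minus LB_neg. With the filter on the mean 8 of the 10 probe sets were tested. No paired analysis was possible because the groups share 1 replicate letter only. The larval arrays thus make at most a single pair, and limma treated them as unpaired. The larval pair has 1 array a side, and svr 144346_at and dimm were above the filter on 2 and 3 arrays.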
